A study of Mus musculus with 36 samples.

Results

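The solute carrier superfamily was followed as 207 mouse genes whose symbol on the array began with Slc and a number, out of 9930 genes with at least 1 probe that carried a single gene symbol. The 207 genes were read by 276 of 14030 such probes, 153 genes by 1 probe and 54 by 2 to 4, and probes of a gene were averaged. All 207 symbols stood in RefSeq under the same gene identifier. Grouped by substrate, 43 genes belonged to carriers of amino acids or peptides, 20 to carriers of glucose and other sugars, 25 to the mitochondrial carrier family, 52 to ion carriers, 19 to carriers of nucleosides or nucleotide sugars, and 45 to carriers of other substrates. A further 3 genes, Slc4a1ap, Slc9a3r1 and Slc9a3r2, match the rule but encode proteins named after a carrier rather than carriers.

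The arrays followed NIH3T3 cells, an immortalised line of mouse embryonic fibroblasts, transfected with Erbb2 in a tet-off system, in which tetracycline is meant to stop expression of the transgene. Erbb2 is a membrane receptor with tyrosine kinase activity, related to the EGF receptor. All groups carried the transfection: cells sampled 1, 2, 4, 12 or 24 h or 3, 5 or 7 days after tetracycline, with 4 arrays at each time, and cells without tetracycline, with 3 distinct arrays. The labels name neither the clone nor the promoter that drives the tet-off activator, and give no culture for each replicate, so p-values measure the spread between arrays, which may be technical. The labels' protocols also describe RNA from organs and a reference pooled from 6 control animals, and the design text mentions 2 untreated lines, so what the second channel held is not settled. The platform names 0 single-symbol probes Erbb2, and the transgene's level was not analysed here.

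Solute carriers are membrane proteins that move small solutes across membranes by facilitated diffusion, exchange or cotransport with ions. Members at the plasma membrane bring in amino acids, sugars, phosphate and metals, while the Slc25 family sits mostly in the inner mitochondrial membrane and exchanges nucleotides, phosphate and metabolites with the cytosol. In fibroblasts, amino acid carriers of the Slc38, Slc7 and Slc3 families supply growing cells, and several of them are known targets of growth factor and amino acid signalling.

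Every value below is a log2 ratio of the 2 channels, centred on its array's median, with the sign of the arrays that carried the sample in Cy3 (replicates 3 and 4) turned. A positive level then stands for more RNA in the sample channel, an assumption that no file settles. All directions here rest on that assumption. Without turning, limma called 0 of the 13 solute carrier genes that it called after turning in the main comparison below. Every group holds both dyes, so without turning a difference of equal sign in both dyes largely cancels. The lack of shared calls thus follows largely from arithmetic and does not test the assumption. Between 17508 and 20010 features carried a value on each array, and the number of arrays is among the limits on precision. The interquartile range of the levels reached 0.693 to 1.419 for the 12 arrays of days, 0.357 to 0.504 for the 20 arrays of hours (1 to 24 h) and 0.493 to 0.7 for untreated ones. Before turning, arrays of opposite dyes had a mean Spearman correlation across probes of -0.208 at 2 h, 0.234 at 3 days and 0.422 untreated. At the other times this mean ran from -0.082 to 0.04. Turning reverses the sign of each. After turning, untreated replicate 1 (Cy5) correlated with replicates 3 and 4 (Cy3) at r = -0.449 and -0.38 across probes, which are not independent replicates. This spread enters every comparison with the untreated arrays. At 3 days replicate 2 (Cy5) likewise correlated with replicates 3 and 4 (Cy3) at r = -0.176 and -0.19 after turning, and these arrays enter the comparison of days with hours. Of 10 fibroblast markers 5 were higher and 3 lower on the arrays of days than on those of hours (Dcn by 2.20 and Col1a1 by 1.28 on the log2 scale, while Vim fell by 0.93 and S100a4 fell by 1.54), and of 4 leukocyte markers Lyz2 was higher by 0.48. None of the 4 epithelial and 3 hepatocyte markers tested passed. The part of these shifts in the carrier results was not tested.

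Most calls came from the comparison of the late with the early part of the course. On the arrays of 3, 5 and 7 days, relative to those of 1 to 24 h, the mitochondrial phosphate carrier Slc25a3 fell by 0.81 log2 units and the adenine nucleotide translocase Slc25a5 fell by 1.13. In the same comparison 4 amino acid or peptide carriers, Slc1a3, Slc15a5, Slc3a2 and Slc38a2, were higher by 0.82, 0.69, 0.51 and 0.30. The contrast leaves the untreated arrays out, although they share the fit's variance and dye term. Limma called 13 of 170 solute carrier genes tested at an adjusted p under 0.05 (Benjamini-Hochberg over all genes), which is 7.65% against 7.5% of all 8116 genes tested. Of the 13, 7 were higher (3.27% of all genes were called higher) and 6 lower (4.24%). The median difference was 0.01 over the carriers and 0.00 over all genes, so neither the share called nor the median of the family as a whole stood off from the background.

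**Figure D1:**
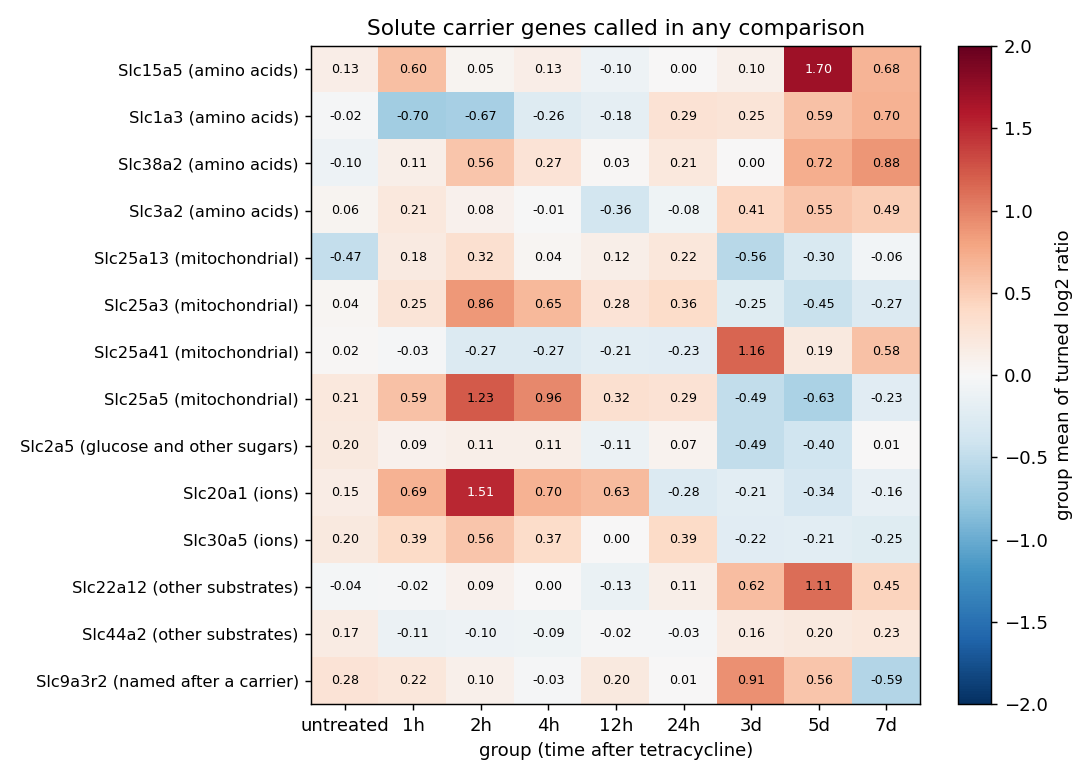
Group means of the turned log2 ratio for the 14 solute carrier genes called in any comparison, with untreated cells at the left and times after tetracycline to the right. Slc25a3 and Slc25a5 sit above 0 from 1 to 24 h and below 0 from 3 to 7 days, while Slc38a2 is highest at 7 days.

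Limma's F-test across all groups called 8 of 169 solute carrier genes (4.73%), against 5.08% of all genes. These were Slc25a3, Slc25a5, Slc25a13, Slc38a2, Slc1a3, Slc3a2, Slc15a5 and Slc9a3r2, the last only named after a carrier. Counts of carriers over the whole family include the genes named after a carrier. The F-test call of Slc25a13 (adjusted p = 0.04) was kept in 10 of 35 fits that each left out 1 array (adjusted p up to 0.0796) and was lost in 6 of 10 other settings. The 8 comparisons of single times share the untreated arrays. At 2 h limma called 1 of 190 carriers, Slc25a3 (0.549% of all genes were called), at 5 days 2 of 182, Slc38a2 and Slc15a5 (1.6%), and at 7 days 1 of 182, Slc38a2 (1.11%). It called 0 of 192 at 1 h (0.239%), 0 of 192 at 4 h (0.268%), 0 of 187 at 12 h (0.0218%), 0 of 191 at 24 h (0.0219%) and 0 of 183 at 3 days (0.5%). At an unadjusted p under 0.05 the carriers numbered 9, 12, 10, 10 and 23 at these 5 times (4.69%, 6.25%, 5.35%, 5.24% and 12.6% of those tested, against 5.11%, 4.26%, 4.34%, 4.52% and 12.3% of all genes). At 2 h, 5 days and 7 days they numbered 16, 21 and 20 (8.42%, 11.5% and 11%, against 6.05%, 10.9% and 10.9% of all genes). The calls against untreated arrays depended on those arrays: without untreated replicate 1 limma called 6, 13 and 9 carriers at 2 h, 5 days and 7 days. They also depended on the other groups in the fit. Fitted on the compared groups alone, with the same untreated arrays but fewer arrays to estimate the spread, limma called 0 at these times. The share of all genes called in these fits is not given.

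Of the 25 mitochondrial carriers 21 were tested between days and hours. Slc25a3, Slc25a5 and Slc25a13 were lower, Slc25a41 was higher, and 17 did not pass. The share called was 19%, against 7.5% of all genes, and whether any substrate group differs from all genes was not tested. The family's median difference was -0.03. The promoters of Slc25a3 and Slc25a5, the pair with the smallest p-values, are shown because these genes moved together. They are RefSeq sequences of build GRCm38.p6, 250 bases before to 50 after the start site, with capitals for any match to 5 motifs searched on both strands: CACGTG (E-box), GCGC, any base and TGCGC (paired NRF1 half-sites), TGATGNAA (amino acid response element core), CCAAT and TATAAA.
Slc25a3, chr10:91123918-91124217, minus strand: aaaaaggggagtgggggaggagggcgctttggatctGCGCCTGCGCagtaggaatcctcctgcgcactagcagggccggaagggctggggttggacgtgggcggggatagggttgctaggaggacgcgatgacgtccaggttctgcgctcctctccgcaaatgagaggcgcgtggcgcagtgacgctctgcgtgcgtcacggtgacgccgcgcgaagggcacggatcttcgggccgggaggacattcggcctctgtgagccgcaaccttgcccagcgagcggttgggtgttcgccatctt
Slc25a5, chrX:36795347-36795646, plus strand: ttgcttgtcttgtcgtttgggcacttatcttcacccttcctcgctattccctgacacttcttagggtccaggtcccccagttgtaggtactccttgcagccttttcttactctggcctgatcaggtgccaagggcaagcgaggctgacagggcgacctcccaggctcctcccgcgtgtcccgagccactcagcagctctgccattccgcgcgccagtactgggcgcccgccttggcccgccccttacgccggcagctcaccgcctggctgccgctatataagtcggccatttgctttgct
The Slc25a3 window holds the paired NRF1 letters at -214 from the start site, which 4.6% of 32851 promoters hold, and none of the 5 motifs is spelled in the Slc25a5 window. The GC share was 65.7% in Slc25a3 and 61.0% in Slc25a5, against a median of 52.7% over all promoters. A match is a description and not a binding site.

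Slc25a3 encodes the carrier that brings phosphate into the matrix for ATP synthesis. Its levels on the 12 arrays of days ran from -0.90 over a median of -0.29 to 0.20, against 0.00, 0.46 and 1.03 as lowest, median and highest on the 20 arrays of hours. The groups overlapped only between 0.00 and 0.20, and the difference was -0.81 (SE 0.08, limma adjusted p = 4.26e-08). At 2 h its 4 arrays read 1.03, 0.92, 0.68 and 0.80, against -0.07, 0.03 and 0.16 on the untreated arrays. All 4 lay above every untreated array, and limma gave 0.78 (SE 0.17, adjusted p = 0.0281). That call ended without any 1 of the 2 h replicates or without untreated replicate 1 or 3, where the adjusted p reached up to 0.10. At 5 days the difference from untreated was -0.53 and did not pass (adjusted p = 0.143).

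Slc25a5 exchanges matrix ATP for cytosolic ADP. Its group means were 0.21 untreated, then 0.59, 1.23, 0.96, 0.32 and 0.29 at 1, 2, 4, 12 and 24 h, and -0.49, -0.63 and -0.23 at 3, 5 and 7 days. At 2 h the arrays read 1.35, 1.34, 1.04 and 1.20, at 5 days -0.47, -0.24, -0.96 and -0.84, and untreated 0.01, 0.25 and 0.38. The 2 h and 5 day arrays thus lay on opposite sides of the untreated ones, yet neither comparison with untreated passed (differences 0.99 and -0.87, adjusted p = 0.0726 and 0.0808). Between days and hours the difference was -1.13 (SE 0.12, adjusted p = 7.42e-08). The probe of Slc25a5 lies in the rows that had to be moved back at 5 and 7 days. With rows not moved back this call and its F-test call were lost. The arrays of 7 days split by dye, with 0.28 and 0.56 in Cy5 and -0.86 and -0.92 in Cy3, and these Cy5 arrays are the only ones of days that overlapped the arrays of hours.

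Slc25a13, an aspartate and glutamate carrier of the malate-aspartate shuttle, fell by 0.48 on the arrays of days relative to those of hours (SE 0.11, adjusted p = 0.00336). Its 5 day arrays lay at -0.33, -0.19, -0.38 and -0.28 and its 3 day arrays at -0.26, -0.58, -0.73 and -0.68, against a median of 0.16 over the arrays of hours. The untreated arrays were spread widely, at 0.16, -0.62 and -0.96, and without 3 days the call ended (-0.36, adjusted p = 0.0714). Slc25a41, a member of the ATP-Mg and phosphate carrier branch, rose by 0.84 (SE 0.23, adjusted p = 0.0179), mostly through 3 days, where its arrays read 1.98, 0.74, 1.85 and 0.05. Without 3 days that call ended as well (0.59, adjusted p = 0.127). It was kept in 7 of 13 other settings, and was also lost without turning, with array weights, with rows not moved back and on either dye alone. The citrate carrier Slc25a1 did not pass (difference 0.16, adjusted p = 0.463). Slc25a45, of the same family, averaged 2.57 at 3 days on 3 arrays (0.79, 3.77 and 3.17), against 1.04, -2.76 and -0.19 untreated, a difference of 3.13 that missed the threshold (adjusted p = 0.0872).

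**Figure D2:**
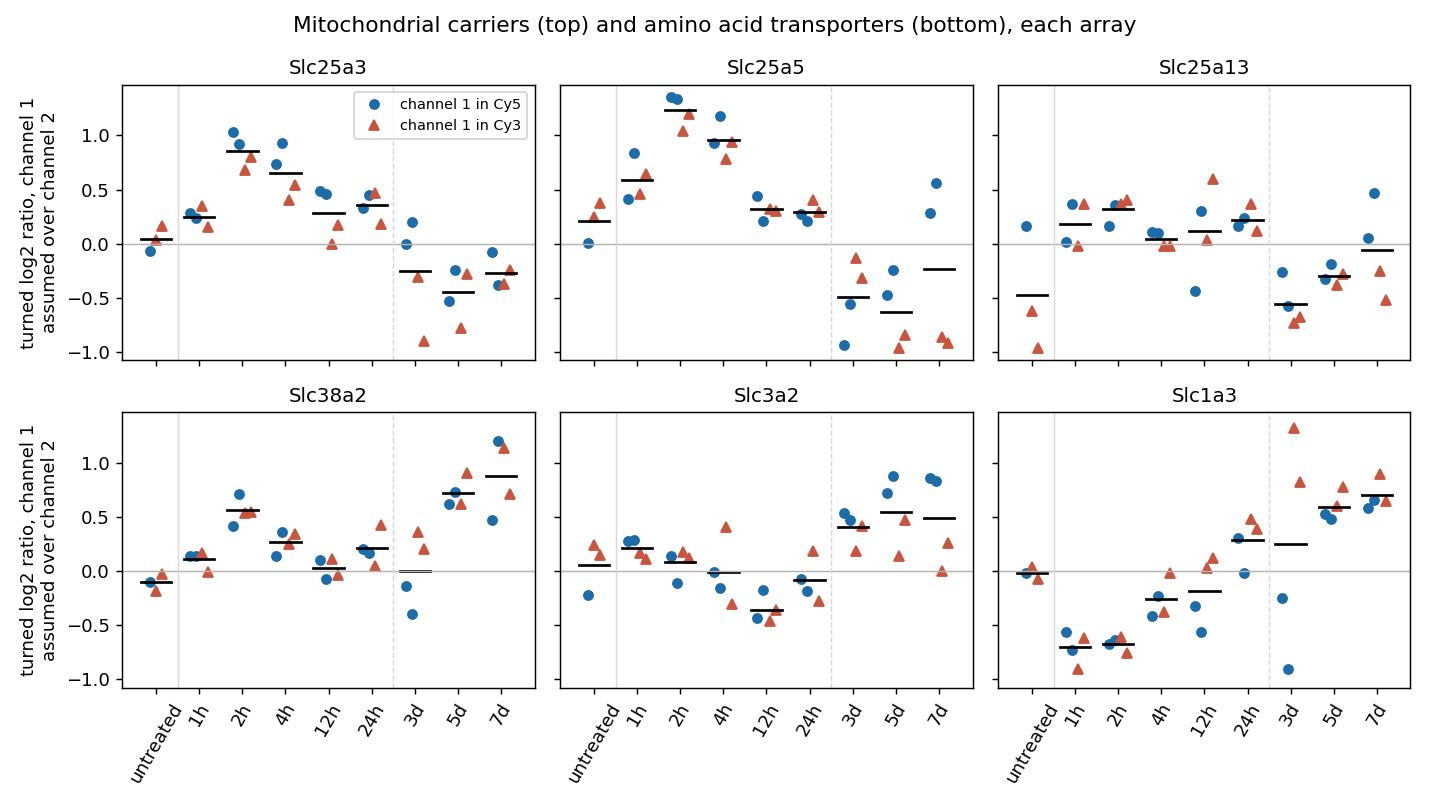
Turned log2 ratio on every array for 3 mitochondrial carriers (top) and 3 amino acid transporters (bottom), by group from untreated to 7 days, with circles for Cy5 arrays, triangles for Cy3 arrays and bars for group means. Slc25a3 and Slc25a5 peak at 2 h (means 0.86 and 1.23) and Slc38a2 at 7 days (mean 0.88), and Slc1a3 splits by dye at 3 days.

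Among amino acid and peptide carriers, 35 of 43 were tested between days and hours. Slc1a3, Slc3a2, Slc38a2 and Slc15a5 were higher, 0 were lower and 31 did not pass (11.4% called, against 7.5% of all genes). The median difference was 0.09, with 24 of 35 above 0, against 0.00 over all genes. Genes of this group with all treated arrays above all untreated ones numbered 7 of 39 at 1 h (3.96% of all genes), 4 of 38 at 2 h (7.37%), 3 of 39 at 4 h (4.41%), 2 of 38 at 12 h (3.16%), 4 of 39 at 24 h (3.38%), 2 of 38 at 3 days (2.39%), 8 of 36 at 5 days (4.3%) and 8 of 38 at 7 days (3.89%). Those with all treated arrays below numbered 1, 1, 0, 1, 0, 1, 0 and 0 at these times, against 3.79%, 3.35%, 2.47%, 2.74%, 2.72%, 2.37%, 4.13% and 3.35% of all genes. The counts share the 3 untreated arrays and so are not independent of each other; of the carriers whose untreated arrays lay low, Slc66a2 is among those above at every time and Slc38a9 at every time but 3 and 5 days. Promoters of the 3 called genes of this group that act in amino acid transport at the plasma membrane are shown as above.
Slc38a2, chr15:96699679-96699978, minus strand: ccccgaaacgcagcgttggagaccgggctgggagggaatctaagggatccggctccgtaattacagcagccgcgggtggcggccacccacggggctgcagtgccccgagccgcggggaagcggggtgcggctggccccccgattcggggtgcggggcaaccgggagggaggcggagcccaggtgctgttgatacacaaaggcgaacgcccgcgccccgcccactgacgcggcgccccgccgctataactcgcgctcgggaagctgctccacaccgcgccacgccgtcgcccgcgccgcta
Slc3a2, chr19:8713848-8714147, minus strand: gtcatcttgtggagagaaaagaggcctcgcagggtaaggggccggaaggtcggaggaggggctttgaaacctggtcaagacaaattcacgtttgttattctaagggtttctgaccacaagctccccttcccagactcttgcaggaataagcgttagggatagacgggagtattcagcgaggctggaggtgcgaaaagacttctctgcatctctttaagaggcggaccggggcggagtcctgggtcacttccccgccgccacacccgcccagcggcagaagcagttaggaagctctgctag
Slc1a3, chr15:8710758-8711057, minus strand: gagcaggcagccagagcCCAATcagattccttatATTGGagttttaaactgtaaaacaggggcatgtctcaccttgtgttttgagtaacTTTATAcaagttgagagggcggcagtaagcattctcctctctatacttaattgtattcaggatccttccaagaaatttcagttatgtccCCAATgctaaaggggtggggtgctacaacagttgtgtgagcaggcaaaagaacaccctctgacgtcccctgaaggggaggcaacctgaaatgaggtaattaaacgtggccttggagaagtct
The Slc1a3 window spells CCAAT or its reverse complement at -233, -216 and -72, which 37.4% of promoters hold at least once, and TATAAA in reverse at -161 (13.6% of promoters). Neither TGATGNAA, held by 3.97% of promoters, nor CACGTG, held by 7.15%, is spelled in any of the 5 windows.

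Slc38a2 (SNAT2) takes up neutral amino acids such as glutamine and alanine with sodium, and is known to be induced when amino acids run short. Its 7 day arrays read 0.47, 1.20, 1.14 and 0.71 and its 5 day arrays 0.62, 0.73, 0.62 and 0.91, against -0.10, -0.18 and -0.03 on the untreated arrays. Neither time overlapped the untreated arrays. Differences from untreated were 1.00 at 7 days (SE 0.17, adjusted p = 0.000986) and 0.84 at 5 days (SE 0.17, adjusted p = 0.00443). The 3 day arrays did not share this, with -0.14, -0.40, 0.36 and 0.20. At 2 h the arrays read 0.42, 0.71, 0.54 and 0.55, a difference of 0.67 that missed the threshold (adjusted p = 0.0608). Its 2 probes agreed at 5 days (0.87 and 0.81) and 7 days (0.90 and 1.09) and disagreed at 2 h, where 1 gave 1.07 (adjusted p = 0.006) and the other 0.27. They also disagreed between days and hours, with 0.07 and 0.53 behind the gene's 0.30 (SE 0.08, adjusted p = 0.0167). That call was kept in 8 of 13 other settings. It was lost without turning, without centring, with quantile normalization, with array weights and on Cy5 arrays alone.

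Slc3a2 encodes CD98 heavy chain, the glycoprotein that escorts light chains such as Slc7a5 to the plasma membrane. Its levels on the arrays of days ran from 0.00 over 0.47 to 0.88, against -0.46, -0.04 and 0.41 as lowest, median and highest on the arrays of hours. The difference was 0.51 (SE 0.09, adjusted p = 0.000376), larger on Cy5 arrays (0.76) than on Cy3 arrays (0.27, not past the threshold). The probe of Slc3a2 also lies in the rows moved back at 5 and 7 days. With rows not moved back this call and the F-test call of Slc3a2 were lost. Its light chain Slc7a5, a leucine exchanger, had a value on 2 arrays at 3 days and was not tested in that comparison. At 7 days Slc7a5 read 0.81, 1.60 and 4.00 on 3 arrays, against 0.45, -1.70 and 0.09 untreated (difference 2.53, SE 0.75, adjusted p = 0.118), and at 24 h it averaged -1.11. The probe of Slc7a5 lies in the rows moved back as well.

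Slc1a3 (GLAST), a sodium-coupled glutamate and aspartate transporter, is best known from astrocytes. Its group means were -0.02 untreated, -0.70, -0.67, -0.26, -0.18 and 0.29 at 1, 2, 4, 12 and 24 h, and 0.25, 0.59 and 0.70 at 3, 5 and 7 days. The 7 day arrays read 0.58, 0.66, 0.90 and 0.65 and the 1 h arrays -0.56, -0.73, -0.90 and -0.62, and the untreated arrays lay between them at -0.02, 0.04 and -0.07. The 3 day arrays were split by dye, at -0.25 and -0.90 in Cy5 and 1.32 and 0.82 in Cy3. Between days and hours the difference was 0.82 (SE 0.13, adjusted p = 3.72e-05), and 0.95 without 3 days. Against untreated neither 1 h (-0.63, adjusted p = 0.812) nor 7 days (0.77, adjusted p = 0.198) passed.

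Slc15a5 belongs to the peptide transporter family. Its 5 day arrays read 1.63, 2.14, 1.74 and 1.29, against 0.27, 0.14 and -0.03 untreated, a gap of more than 1 log2 unit between the groups (difference 1.53, SE 0.35, adjusted p = 0.0151). At 7 days its arrays read 0.94, 0.35, 0.32 and 1.13, and at 3 days they scattered from -1.04 to 1.64. Its probe lies in the rows that had to be moved back at 5 and 7 days, and the 5 day call ended without untreated replicate 4 (adjusted p = 0.087). The other carriers of this group with well-known roles did not pass between days and hours: the glutamine exchanger Slc1a5 (-0.35, adjusted p = 0.217), the serine and alanine exchanger Slc1a4 (-0.10, adjusted p = 0.925) and the arginine and lysine carrier Slc7a1 (0.10, adjusted p = 0.78).

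A few carriers stood apart through their untreated arrays. Slc38a9, a lysosomal arginine sensor, read -0.91, -1.0 and -0.98 untreated, and its differences from untreated ran up to 1.49 at 12 h (adjusted p = 0.195). Its 2 probes disagreed, with 2.88 and 0.09 at 12 h. Slc66a2, of a family of lysosomal amino acid carriers, read -1.02, -1.03 and -1.56 untreated and differed by 1.23 at 24 h (adjusted p = 0.665), while the one of its 3 probes tested at that time gave 0.29. The glutamine carrier Slc38a5 read 0.34, -2.92 and -1.40 untreated, and the mitochondrial iron carrier Slc25a28 -0.32, -0.50 and -2.16. Their largest differences, 1.61 for Slc38a5 at 12 h (adjusted p = 0.691) and 1.28 for Slc25a28 at 1 h (adjusted p = 0.198), did not pass. Slc38a7, a lysosomal glutamine carrier, differed by 1.10 at 24 h (adjusted p = 0.665), while the one of its 2 probes tested at that time gave 0.45.

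A list of genes known, like Slc38a2, to respond to amino acid shortage was read beside it. Of 20 such amino acid response genes tested between days and hours, 0 were higher (3.27% of all genes) and 3 were lower (4.24%). Psat1, an enzyme of serine synthesis, fell by 1.87 (SE 0.18, adjusted p = 1.74e-08). Cth, an enzyme of cysteine synthesis, fell by 0.83 (SE 0.25, adjusted p = 0.0377) and Cars, a tRNA ligase for cysteine, fell by 0.38 (SE 0.09, adjusted p = 0.00672). The median of the 20 was -0.15. The list holds neither Slc38a2 nor Slc3a2, both called higher in the same comparison, and a link between the list and the carriers was not tested. Psat1 was also lower than untreated at 5 days (-1.68, adjusted p = 0.0168) and 7 days (-2.06, adjusted p = 0.00392), the times at which Slc38a2 was higher.

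Of 52 ion carriers 43 were tested between days and hours, and 2 were lower, 0 higher and 41 did not pass. The share called was 4.65%, against 7.5% of all genes, with a median difference of 0.04. Slc20a1, the sodium phosphate cotransporter PiT-1, read 1.03, 1.87, 1.25 and 1.89 at 2 h, against 0.04, 0.08 and 0.33 untreated, without overlap, although the difference of 1.31 had an SE of 0.50 and did not pass (adjusted p = 0.538). At 24 h its arrays scattered from -1.58 to 1.67. On the arrays of days it ran from -1.06 over -0.10 to 0.48, with 11 values, against -1.58, 0.75 and 1.89 on those of hours (difference -0.91, SE 0.25, adjusted p = 0.0201). Without 3 day replicate 4 that call ended (adjusted p = 0.0646). It was also lost with array weights. The probe of Slc20a1 lies in the rows that had to be moved back at 5 and 7 days. Slc30a5, a zinc carrier of the secretory pathway, fell by 0.57 (SE 0.17, adjusted p = 0.031), with group means of 0.39, 0.56, 0.37, 0.00 and 0.39 at 1 to 24 h and -0.22, -0.21 and -0.25 at 3, 5 and 7 days. At 12 h 1 of its arrays read -1.68 and the other 3 read 0.74, 0.63 and 0.30. Its call ended without 3 day replicate 1 or 2 or 5 day replicate 4. That call was kept in 8 of 13 other settings. It was lost without turning, without centring, with array weights, with rows not moved back and on Cy3 arrays alone.

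Other ion carriers named by the same rules did not pass. The anion exchanger Slc4a1 read -0.70, -3.65 and -2.82 at 7 days on 3 arrays, against 0.18, -0.27 and 0.34 untreated (difference -2.47, adjusted p = 0.0608). The probe of Slc4a1 also lies in the rows moved back at 5 and 7 days. The metal transporter Slc39a11 read -0.99, -1.37 and -1.86 at 3 days on 3 arrays, against 0.30, 0.03 and 0.14 untreated (difference -1.56, adjusted p = 0.0733). Between days and hours the sodium potassium chloride cotransporter Slc12a2 (0.05), the iron transporter Slc11a2 (0.03), the zinc exporter Slc30a1 (0.39) and the zinc and iron importer Slc39a14 (0.06) had adjusted p of 0.904, 0.957, 0.392 and 0.81.

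Of 16 sugar carriers tested, 6.25% were called, against 7.5% of all genes, and the group's median was -0.04. The fructose transporter Slc2a5 alone was called, lower by a difference of -0.35 (SE 0.11, adjusted p = 0.0383). Its Cy3 arrays of 3 and 5 days read -0.66, -1.06, -0.78 and -0.45 and its Cy5 arrays -0.38, 0.14, -0.08 and -0.28, while the arrays of hours ran from -0.38 to 0.47. The 7 day arrays did not share the low levels, at -0.09, 0.62, 0.00 and -0.50 (mean 0.01). Without 3 days the call ended (-0.25, adjusted p = 0.175), as it did in 16 of 32 fits that each left out 1 array, with an adjusted p of up to 0.0831. Of 17 carriers of nucleosides and nucleotide sugars 0 were called and 4 had an unadjusted p under 0.05 (23.5%, against 18% of all genes), with a median of 0.08. The nucleoside transporter Slc29a1 read -0.66, -0.66, -0.38 and -0.43 at 5 days, against -0.35, 0.25 and 0.41 untreated, below all of them (difference -0.64, adjusted p = 0.122). Its 2 probes disagreed, with -1.13 (adjusted p = 0.00209) and -0.15 at 5 days. They also disagreed between days and hours, where limma on single probes gave -0.5 (adjusted p = 0.00134) and 0.03. The averaged gene was not called there (-0.23, adjusted p = 0.176).

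Of 36 carriers of other substrates 2 were higher and 0 lower (5.56% called, against 7.5% of all genes), with a median of -0.03. Slc22a12, known as the urate transporter URAT1 of the kidney, read 0.74, 2.03, 0.94 and 0.72 at 5 days, against a median of 0.00 over the arrays of hours. Its difference between days and hours was 0.72 (SE 0.18, adjusted p = 0.00828), while its untreated arrays spread from -0.85 to 1.18. The choline transporter-like gene Slc44a2 was higher by 0.27 on the arrays of days than on those of hours (SE 0.08, adjusted p = 0.0245). That call was kept in 6 of 13 other settings. It was lost without centring, with quantile normalization, with array weights, with rows not moved back, without turning and on either dye alone. Slc44a2 read 0.25, 0.36, 0.11 and 0.21 at 7 days, against a highest level of 0.16 on any array of hours. Its means of 0.16, 0.20 and 0.23 at 3, 5 and 7 days lay near its untreated mean of 0.17, and its means at 1 to 24 h lay below that. The lactate carriers Slc16a1 and Slc16a3 (-0.16 and -0.02, adjusted p = 0.684 and 0.941) and the taurine carrier Slc6a6 (0.18, adjusted p = 0.56) did not pass. Slc9a3r2, a scaffold protein gene named after a sodium proton exchanger, passed only the F-test (adjusted p = 0.00175), with means of 0.91 at 3 days, 0.56 at 5 days and -0.59 at 7 days, against 0.28 untreated. Its 7 day arrays, at -0.40, -0.83, -0.31 and -0.81, lay below every other array of the gene. The probe of Slc9a3r2 lies in the rows that had to be moved back at 5 and 7 days. Its F-test call was kept in 8 of 10 other settings and lost without turning and without centring.

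**Figure D3:**
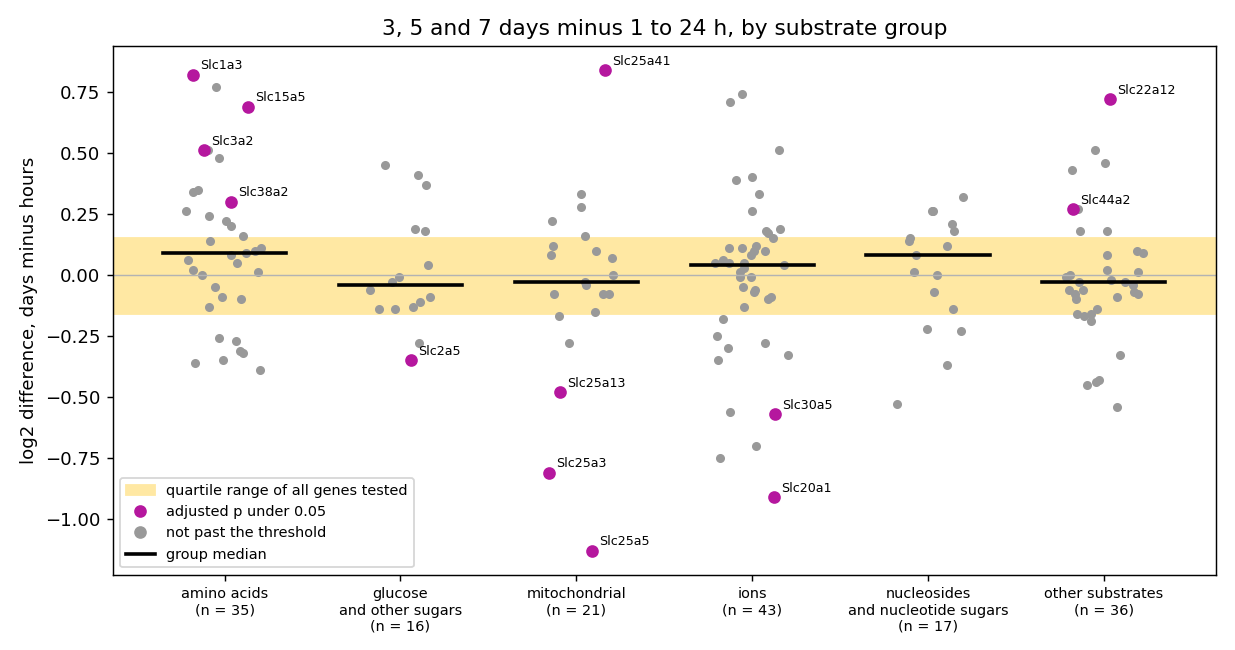
Log2 difference between 3 to 7 days and 1 to 24 h for each solute carrier gene, by substrate group, with group medians as bars, called genes in colour and named, and the range between the quartiles of all genes tested shaded (-0.16 to 0.15). The 4 called genes of amino acid carriers lie above 0, and 3 of the 4 called mitochondrial carriers lie below it. Of all genes tested 7.5% were called, and differences between groups were not tested.

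Other transport families gave few calls in the same comparison, in which 7.5% of all genes were called. Of 17 ABC transporters 0 passed. Of 17 P-type ATPases and Na,K-ATPase subunits 1 was higher, the plasma membrane calcium pump Atp2b1 (0.55, SE 0.10, adjusted p = 0.000494), and 1 lower, the gastric proton pump Atp4a (-0.89, SE 0.13, adjusted p = 9.74e-06). Whether carriers differ from these families was not tested.

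The dyes give a technical division of the arrays in which each side holds every time. Of the 13 carriers called between days and hours, 12 could be fitted within each dye, and all 12 had the same sign in both, as a description, since the same arrays chose them. Over all 146 carriers that could be fitted, 67 (45.9%) had the same sign in both dyes, and over all genes 3200 of 6815 (47%). Slc25a3 differed by -0.76 on Cy5 and -0.85 on Cy3 arrays, Slc25a5 by -0.95 and -1.31, and Slc1a3 by 0.56 and 1.07. Each of these 3 genes passed the threshold within either dye alone. Slc20a1 was fitted on Cy5 arrays only, where it differed by -0.76 and did not pass.

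**Figure D4:**
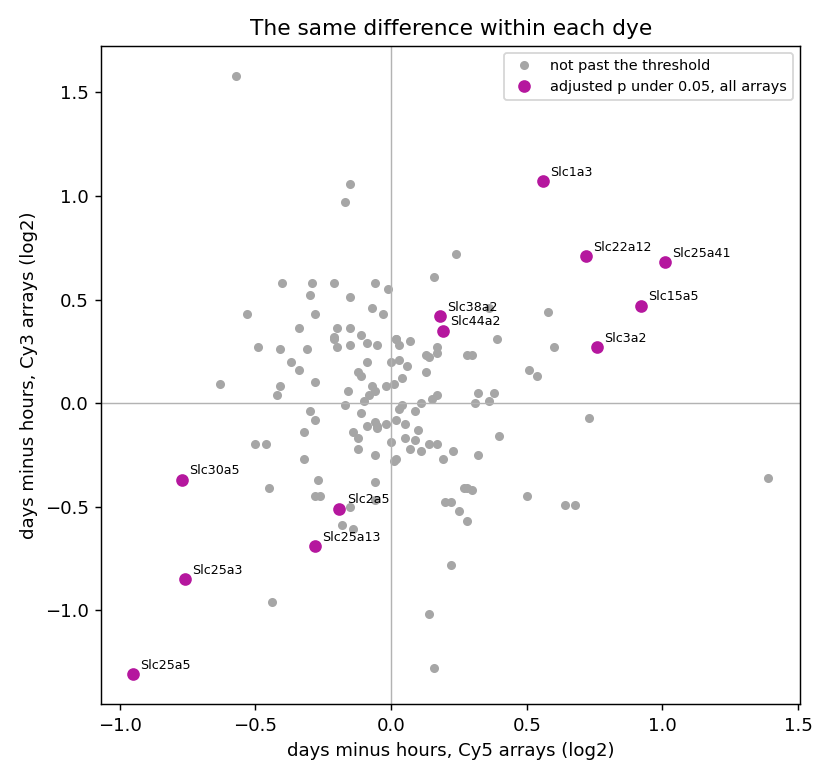
Days minus hours log2 difference of each solute carrier gene on Cy3 arrays (vertical) against Cy5 arrays (horizontal), with genes called on all arrays in colour and named. All 12 named genes lie in the quadrants of equal sign, from Slc25a5 (-0.95 and -1.31) to Slc1a3 (0.56 and 1.07), while of all 146 genes 67 do.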

How the data were processed

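RNA of tetracycline-treated and untreated cells was compared on 36 two-colour arrays. The authors deposited log2 ratios between channels. Per the labels, samples carried Cy5 in replicates 1 and 2 and Cy3 in replicates 3 and 4. Scanner software, background correction, normalization, numerator and the ratio's direction are not given in the sources used here.

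The 2807 log2 values above 12 were left out. At 5 and 7 days values had slid against the probe rows by 1 to 5 rows; they were moved back by their pattern of missing values, checked on simulated data, and 775 rows were left out. Each array was centred on its median and Cy3 arrays were multiplied by -1. Untreated replicates 1 and 2 differed by a constant 0.771 (SD 0.00051 over 19840 values), less than any sampling noise, and were counted as 1 sample, leaving 35 arrays. Probes named for a single gene symbol were averaged per gene; 6320 probes had no symbol and 5 had several.

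All 35 arrays entered 1 limma fit (limma 3.58.1, R 4.3.3) holding group means plus 1 dye term, then eBayes, tested on simulated data. A gene needed 3 values in each group compared, and p-values were adjusted by Benjamini-Hochberg over all genes tested. Comparisons were each time minus untreated, a moderated F-test over all groups, and days (3, 5 and 7 days) minus hours (1 to 24 h). Genes were named if called at an adjusted p under 0.05, if among the 2 smallest p-values of a comparison, or if among 18 measured genes of a list of well-known carriers. Same-numbered replicates did not deviate together: over 136 pairs of arrays r ran from -0.172 to 0.146 (median 0.021, 4 pairs over 0.1), so numbers were not taken to pair samples. Alternatives covered turning, centring, quantile normalization, array weights, dye effects, groups fitted, row moves, missing values, single probes and single arrays left out. Members, substrate groups and comparison lists were chosen with earlier results of these data known. Python 3 scripts used the RefSeq promoter table of GRCm38.p6.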

Additional observations from a re-analysis of the deposited data

Results flagged for a closer look

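Within groups of 4 arrays, 4 values lay apart from the other 3 by Dixon's test, among 111 groups examined for the 14 called genes; chance picks out about 1 in 20 groups. These were Slc22a12 on 5 day replicate 2 (2.03), Slc25a13 on 2 h replicate 1 (0.16), Slc25a41 on 7 day replicate 2 (1.67) and Slc38a2 on 1 h replicate 4 (-0.01).

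The difference between the late and early times was itself tested in the fit over all genes and passed for 13 carriers, given here as log2 differences, days minus hours. Higher on the arrays of days were Slc25a41 (0.84), Slc1a3 (0.82), Slc22a12 (0.72), Slc15a5 (0.69), Slc3a2 (0.51), Slc38a2 (0.30) and Slc44a2 (0.27). Lower on them were Slc25a5 (-1.13), Slc20a1 (-0.91), Slc25a3 (-0.81), Slc30a5 (-0.57), Slc25a13 (-0.48) and Slc2a5 (-0.35). The arrays of days had the wider spread of all genes (interquartile range 0.693 to 1.419, against 0.357 to 0.504 on those of hours), and its part in these differences was not tested.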

How the results depend on the processing

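Counts in this section are of carriers alone. The share of all genes called under each setting is not given, so these counts describe the processing and are no result about carriers. Turning the Cy3 arrays was the choice with the most effect. Without it the carriers called numbered 1, 2, 1, 3 and 2 at 1, 2, 4, 12 and 24 h, 28 at 3 days, 8 at 5 days, 10 at 7 days and 8 between days and hours, of which 0 were among the 13 called after turning. Days minus hours then took the other sign for Slc1a3 (-0.25), Slc20a1 (0.12), Slc25a13 (0.21), Slc25a3 (0.05), Slc25a5 (0.18), Slc2a5 (0.16), Slc38a2 (-0.12) and Slc44a2 (-0.08), as did Slc38a2 at 5 days (-0.19) and 7 days (-0.19). Without turning these differences set Cy5 against Cy3 arrays. The lost calls and changed signs thus follow largely from arithmetic and do not test the direction. With rows not moved back Slc15a5 read -0.27 at 5 days and -0.25 between days and hours, values of other probes by construction, and 4 carriers were called at 7 days. Calls between days and hours that ended in that setting were those of Slc15a5, Slc25a41, Slc25a5, Slc2a5, Slc30a5, Slc3a2 and Slc44a2.

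Between days and hours the 13 calls became 8 with array weights (7 shared), 18 with a dye effect for each group (13 shared), 11 with quantile normalization (10 shared) and 10 without centring (9 shared); Slc15a5, Slc1a3, Slc22a12, Slc25a13, Slc25a3, Slc25a5 and Slc3a2 were called in each of these 4. Settings chosen after the data were seen gave 15 without 3 days, 10 on Cy5 arrays and 11 on Cy3 arrays. Array weights gave 12, 22, 12, 7, 8 and 10 calls at 1, 2, 4, 12 and 24 h and 5 days, and 17 in the F-test. Quantile normalization gave 1, 5, 2 and 1 at 1, 2, 4 and 12 h. Separate dye effects by group gave 2, 1, 2 and 4 at 2 h, 4 h, 3 days and 7 days. Without centring there were 0, 1 and 0 calls at 2 h, 5 days and 7 days and 3 in the F-test. Fits of only the groups compared gave 0 at 2 h, 5 days and 7 days. Against 0 in place of the untreated arrays there were 1, 5, 2, 9, 12 and 11 calls at 1 h, 2 h, 4 h, 3 days, 5 days and 7 days. Single probes gave 2 at 2 h and 5 at 5 days.

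With 1 array left out, calls ranged from 0 to 6 at 1 h and 2 h, 0 to 4 at 4, 12 and 24 h, 0 to 11 at 3 days, 1 to 13 at 5 days, 1 to 9 at 7 days, 7 to 11 in the F-test and 12 to 16 between days and hours; the highest counts at single times came without untreated replicate 1. With the replicate block, which the numbers do not justify, limma called 1 carrier at 2 h (Slc38a9 in place of Slc25a3), 2 at 5 days, 1 at 7 days, 7 in the F-test and the same 13 between days and hours. Signal over background is unknown here, so its part in these limits was not tested.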
